A study of Mus musculus with 24 samples.

Results

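The genes described here are those of the epidermal differentiation complex, a cluster on mouse chromosome 3 whose products build the outer shell of the skin. Members were the protein-coding genes of GENCODE M21 whose symbols start with Lce or Sprr, together with Flg, Flg2, Hrnr, Rptn, Crnn, Tchhl1, Lor, Ivl and Crct1. This gave 45 of the 55471 genes in the expression tables, spread over 1.39 megabases of GRCm38 from Lor (start 92080271) to Tchhl1 (end 93471980). By family they were 14 Lce1 genes, 6 Lce3 genes, Lce6a, 11 Sprr2 genes, 4 other Sprr genes (Sprr1a, Sprr1b, Sprr3 and Sprr4), 6 genes of the S100-fused type (Flg, Flg2, Hrnr, Rptn, Crnn and Tchhl1) and 3 further envelope genes (Lor, Ivl and Crct1). Sprr2g and Sprr2c-ps have the prefix but are annotated as pseudogenes and were left out.

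Skin came from female mice 10 weeks of age in 3 groups of 4 biological replicates: F-PRT, S-PRT and Untreated. The abbreviations are taken to mean proton radiotherapy given at an ultra-high (FLASH) dose rate and at the standard dose rate; the labels do not spell them out. The series is titled for a mouse sarcoma model. The labels used here give no strain, dose, irradiated field, time after irradiation or tumour status, so nothing is known here of what the groups share beyond sex and age. Both irradiated groups were compared with the same 4 Untreated libraries, so the comparisons against Untreated are not independent of each other.

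As keratinocytes leave the basal layer and move outward they switch on this cluster. Involucrin and small proline-rich proteins are cross-linked by transglutaminases beneath the cell membrane, loricrin and late cornified envelope proteins are added as the shell matures, and filaggrin bundles keratin filaments before it is broken down into small molecules that hold water. Sprr1 and Sprr2 genes, and human LCE3 genes, are best known for higher expression in wounded, inflamed or otherwise stressed epidermis, whereas Lce1 genes, loricrin and filaggrin belong to undisturbed terminal differentiation.

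Levels are given as CPM after trimmed-mean (TMM) scaling of library sizes, called scaled CPM below, when libraries are compared, and as TPM, which corrects for transcript length, when genes are compared. The skin libraries held 16.42 to 22.09 megacounts (summed expected counts). All 9 suprabasal and all 10 basal keratinocyte markers looked up were detected in skin. The 8 bone and marrow markers summed to 41.1 to 131 scaled CPM in the skin libraries, mostly from Acp5, Ctsk and Hbb-bs. Of these 8 only Ibsp was at 0 in every skin library. Some libraries stood apart in markers of other cell types. S-PRT 4 held 523 scaled CPM of 10 dermal fibroblast markers, against 4539 to 5953 in S-PRT 1 to 3, and 8.02 scaled CPM of 10 endothelial markers (Cdh5 and Pecam1 at 0.410 and 1.64), against 189 to 209. Its 10 basal keratinocyte markers summed to 33519 scaled CPM, against 9635 to 11858 in S-PRT 1 to 3. S-PRT 1 had the highest sums of 10 skeletal muscle markers (22758 scaled CPM) and of 15 hair follicle markers (1408, the others 113 to 461). Of the hair markers Krt35, Msx2, Hoxc13, Lef1 and Krt75 were higher in S-PRT 4 than in S-PRT 1. Untreated 1 had the highest sum of 9 suprabasal markers (24151, the others 11381 to 18976), but not the highest Krt2, Dsc1, Dsp or Calml3. How far these differences in tissue make-up enter the results below was not tested, and in bulk tissue fewer cells of a type and less RNA per cell cannot be told apart.

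In untreated skin the cluster was dominated by late cornified envelope genes. Lce1 genes held 64.3% of the members' summed TPM, followed by Lor, Ivl and Crct1 with 18.1%, the Sprr genes outside Sprr2 with 7.77%, the S100-fused genes with 5.57%, Sprr2 with 1.98%, Lce6a with 1.30% and Lce3 with 1.03%. Crct1, a small cysteine-rich protein gene, had the highest mean at 433 ± 171 TPM (SD, n = 4). It was followed by Lce1a1 (397 ± 148), Lce1m (385 ± 171), Lce1b (362 ± 147), Lce1c (321 ± 114) and Lce1a2 (301 ± 106), and then by Lor (264 ± 182) and Sprr1a (256 ± 218). The 14 Lce1 genes ran from 30.3 TPM (Lce1g) to 397 TPM, and the 6 Lce3 genes from 0.825 TPM (Lce3a) to 27.5 TPM (Lce3c). In the order of the 45 means, none of the 44 pairs of neighbours differed by more than the larger of the pair's SDs. That SD holds shifts shared by the genes of a library, so it cannot show whether neighbours keep their order. Lce1i, Lce1j, Lce1h and Lce1k kept theirs in each Untreated library (176, 150, 132 and 98.6 TPM in Untreated 1). Crct1 and Lce1a1 changed places in Untreated 3 (373 and 419 TPM).

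**Figure D1:**
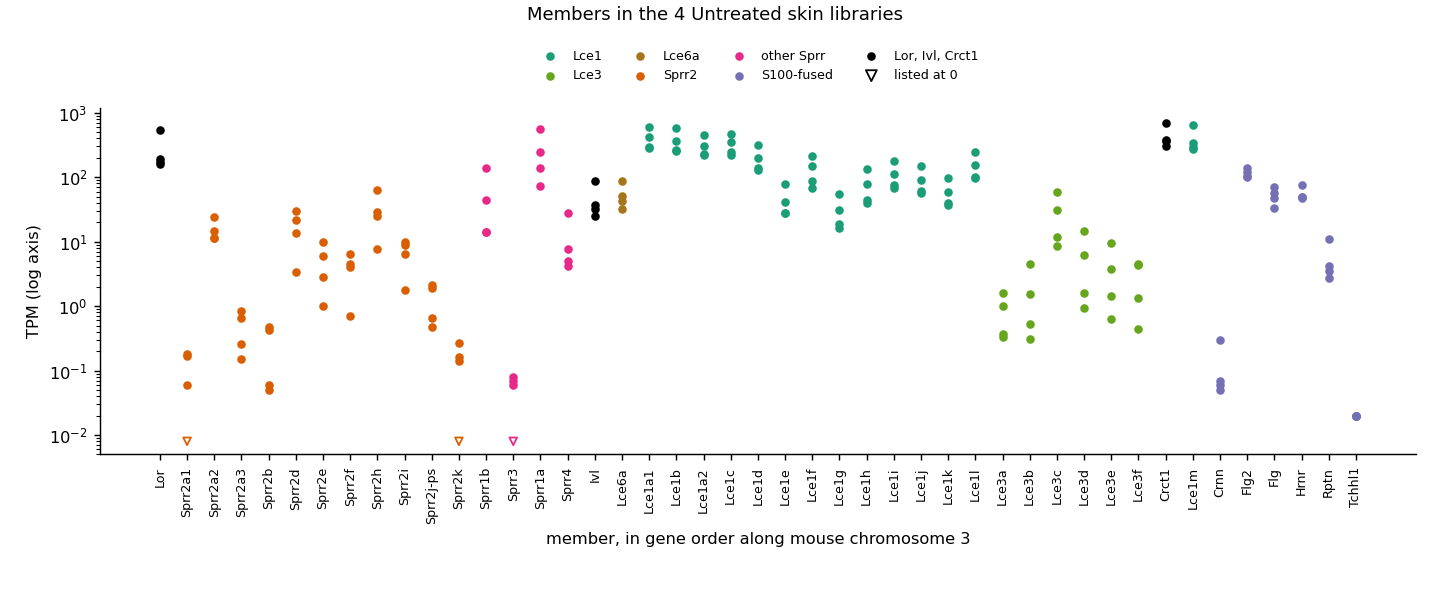
TPM of the 45 members in the 4 Untreated skin libraries, in gene order along the cluster; each point is 1 library, the vertical axis is logarithmic and open triangles mark libraries in which the gene was listed at 0. The means of the 14 Lce1 genes run from 30.3 to 397 TPM, and those of the Sprr2 and Lce3 genes reach at most 31.0 and 27.5 TPM, Sprr2h lying just above Lce1g.

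At the low end, 8 members did not pass the filter on low counts and were not tested: Sprr2a3, Sprr2b, Sprr2j-ps, Sprr2k, Sprr3, Lce3a, Crnn and Tchhl1. Sprr3 and Crnn, which encode proteins typical of the oesophagus and other internal stratified epithelia, averaged 0.0525 and 0.120 TPM in Untreated. Sprr2b and Sprr2k averaged 0.253 and 0.143 TPM, Sprr2a3 0.480 TPM and Sprr2j-ps 1.30 TPM. Crnn and Tchhl1 (a trichohyalin-like gene) were highest in 1 library. Crnn stood at 11.7 scaled CPM and Tchhl1 at 19.9 scaled CPM in S-PRT 1, against at most 1.76 (S-PRT 4) and 0.82 in the other 3 S-PRT libraries. All S-PRT libraries of Tchhl1 lay above Untreated, at 445, 2, 10 and 14 counts against 1 in each Untreated library. S-PRT 1 is the library with the highest summed muscle and hair marker levels.

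The first question was how the members differed between irradiated and untreated skin. Of the 37 members tested after F-PRT, 1 rose (Flg), 1 fell (Sprr2i) and 35 did not pass (edgeR quasi-likelihood test, adjusted p under 0.05 over 19038 genes). Over all genes tested 1.00% rose and 1.39% fell, so with 37 members a single call in either direction stands near the background. After S-PRT 0 of 37 members rose, 5 fell (Sprr2d, Sprr2e, Sprr2f, Sprr2i and Lce3f) and 32 did not pass, while 1.83% of all genes rose and 2.52% fell. The members' median log2 change was 0.12 after F-PRT and -0.22 after S-PRT, beside -0.02 and 0.00 for all genes tested, and the S-PRT median was 0.04 without S-PRT 4. The families' medians are given as a description, with no test of a difference between families. After F-PRT the median of the 7 tested Sprr2 genes was -2.31 and that of the 5 tested Lce3 genes -1.30, against 0.29 for the 14 Lce1 genes and 0.49 for Lor, Ivl and Crct1. After S-PRT these medians were -2.93, -1.76, -0.12 and -0.22. Without Untreated 1 the Lce3 medians were -0.54 and -1.0.

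**Figure D2:**
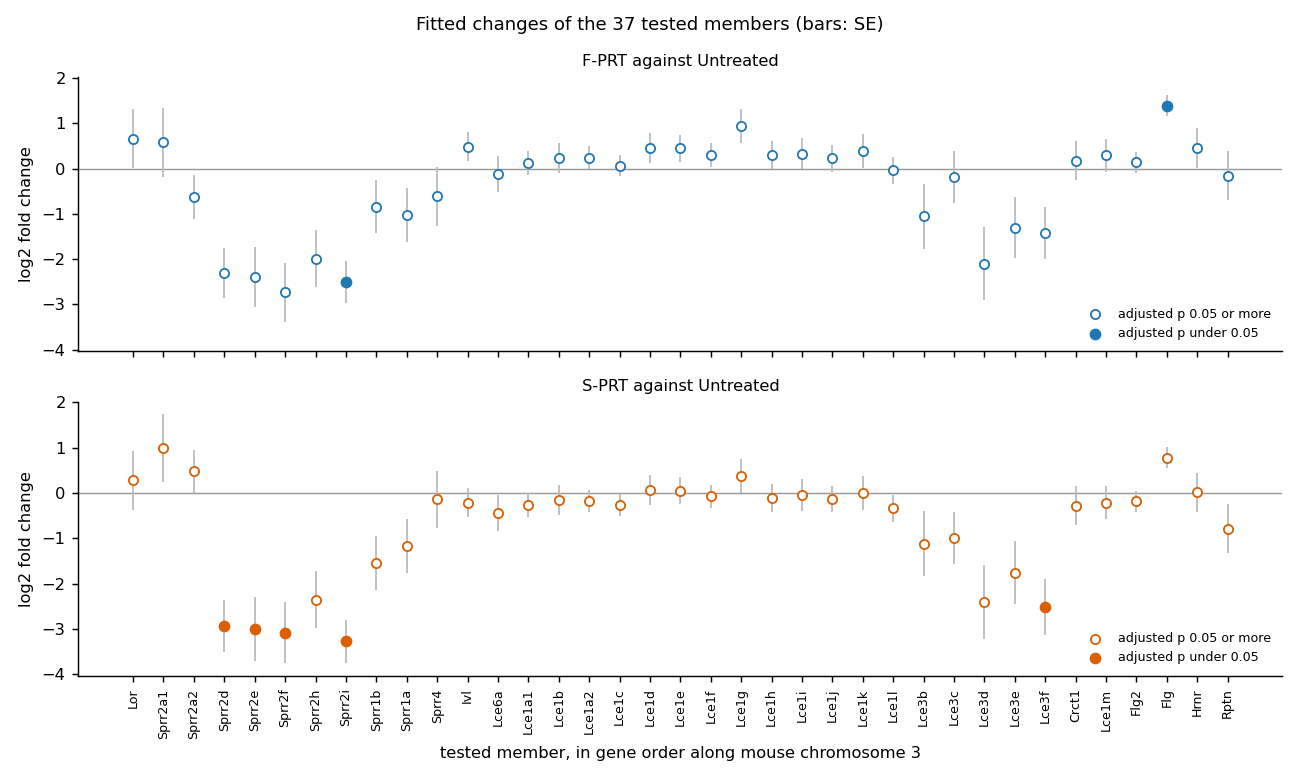
Fitted log2 fold changes against Untreated for the 37 tested members in gene order, F-PRT above and S-PRT below; bars are SE and filled points passed the test at an adjusted p under 0.05. A trough at Sprr2d, Sprr2e, Sprr2f, Sprr2h and Sprr2i and a second at Lce3 appear in each panel. Flg is the highest point after F-PRT (1.39), and after S-PRT Sprr2a1 (1.00) and Flg (0.78) are the highest, neither past the test.

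The Sprr2 genes encode small proline-rich proteins that are cross-linked into the envelope. The promoters of 5 of them are shown beside that of Sprr2a2 because all S-PRT libraries of the 5 lay below Untreated in scaled CPM and those of Sprr2a2 did not. In TPM this held for Sprr2i alone. Sprr2j-ps, which was not tested, also lay below Untreated in scaled CPM (at most 0.454 in S-PRT, at least 0.487 in Untreated). It has no RefSeq promoter entry. Each line gives the 250 bases before the RefSeq transcription start (GRCm38.p6, plus strand of chromosome 3, 5′ to 3′), for Sprr2d chr3:92338890-92339139, Sprr2e chr3:92351893-92352142, Sprr2f chr3:92364937-92365186, Sprr2h chr3:92385435-92385684, Sprr2i chr3:92407741-92407990 and Sprr2a2 chr3:92250397-92250646. Capitals mark matches to TGANTCA, the element bound by AP-1 (Fos and Jun dimers), and to TATAAA, the TATA box.
Sprr2d: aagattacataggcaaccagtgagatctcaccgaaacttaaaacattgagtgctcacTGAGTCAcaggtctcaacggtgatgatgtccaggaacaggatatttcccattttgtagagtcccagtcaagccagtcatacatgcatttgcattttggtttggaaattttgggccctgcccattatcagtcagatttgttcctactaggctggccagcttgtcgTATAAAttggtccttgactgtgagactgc
Sprr2e: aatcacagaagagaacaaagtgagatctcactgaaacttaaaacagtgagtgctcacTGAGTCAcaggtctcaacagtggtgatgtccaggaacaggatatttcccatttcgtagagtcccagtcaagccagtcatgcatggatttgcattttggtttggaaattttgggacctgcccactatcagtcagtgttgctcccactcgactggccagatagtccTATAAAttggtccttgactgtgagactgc
Sprr2f: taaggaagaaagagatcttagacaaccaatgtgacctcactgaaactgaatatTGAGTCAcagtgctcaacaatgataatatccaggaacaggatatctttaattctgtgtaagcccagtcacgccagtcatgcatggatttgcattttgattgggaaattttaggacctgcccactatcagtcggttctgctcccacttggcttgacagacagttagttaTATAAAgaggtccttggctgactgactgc
Sprr2h: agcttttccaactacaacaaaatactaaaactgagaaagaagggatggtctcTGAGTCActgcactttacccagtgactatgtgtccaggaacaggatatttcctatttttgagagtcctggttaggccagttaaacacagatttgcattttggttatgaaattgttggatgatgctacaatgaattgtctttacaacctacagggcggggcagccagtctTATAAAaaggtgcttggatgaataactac
Sprr2i: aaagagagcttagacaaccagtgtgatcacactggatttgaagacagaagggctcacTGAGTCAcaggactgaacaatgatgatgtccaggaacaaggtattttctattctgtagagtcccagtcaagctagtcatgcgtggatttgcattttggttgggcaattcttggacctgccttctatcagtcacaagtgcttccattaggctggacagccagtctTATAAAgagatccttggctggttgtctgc
Sprr2a2: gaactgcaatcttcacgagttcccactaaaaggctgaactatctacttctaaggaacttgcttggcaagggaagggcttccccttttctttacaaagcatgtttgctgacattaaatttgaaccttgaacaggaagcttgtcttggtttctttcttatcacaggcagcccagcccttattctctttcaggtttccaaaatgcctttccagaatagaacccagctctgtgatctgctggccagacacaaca
TGANTCA was searched on both strands and lies 193 to 198 bases before the start in each of the first 5. TATAAA lies 29 bases before it, and neither string is in the Sprr2a2 window. The first 5 windows end right before the GENCODE start of their gene, but that of Sprr2a2 lies inside its GENCODE gene (92215920 to 92256724). Whether Sprr2a2 transcripts in skin begin at the RefSeq start was not tested. Among the 10 Sprr2 genes with a RefSeq promoter entry, 7 held TGANTCA (Sprr2b and Sprr2k were the others) and Sprr2a1, Sprr2a2 and Sprr2a3 did not. Over the 42 members with an entry the share was 16 of 42 (38.1%), and over all 27025 promoters of the same length 6.87%. None of 13 Lce1 and none of 6 Lce3 promoters held it. TATAAA was present in 20 of 42 members and in 13% of all promoters. The strings TGACNNNGC (antioxidant response element core), CGGAAG (ETS core) and AACCNGTT (grainyhead-like), also searched on both strands, were in 7, 0 and 1 of the 42 members and in 10.1%, 13.8% and 1.71% of all promoters. TGACNNNGC can overlap TGANTCA, as it does in Sprr1a. A match describes the letters only and does not show binding. Pairwise identity of the 10 Sprr2 promoters ran from 48.0% to 100% with a median of 62.2%.

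How far reads can be told apart differs within the family. In GENCODE M21 transcripts 89.6% of the 150-base windows of Sprr2a1, 89.0% of those of Sprr2a2 and 19.0% of those of Sprr2a3 also occurred in another gene of that trio, so their split is uncertain, whereas 0% of the windows of the other 8 Sprr2 genes were shared with any gene. The read length of the libraries was 150 bases.

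Sprr2i (ENSMUSG00000042157, chromosome 3, 92407991 to 92409271) showed the clearest separation in the family. Its Untreated libraries stood at 5.16, 7.18, 4.72 and 1.58 scaled CPM, its F-PRT libraries at 0.692, 0.518, 0.854 and 1.18, and its S-PRT libraries at 0.536, 0.615, 0.555 and 0.176. On this scale every irradiated library lay below every Untreated library, and Untreated 4 was the lowest untreated one. In TPM F-PRT 4 and Untreated 4 were both at 1.78. Sprr2i fell to 0.176-fold after F-PRT (log2 -2.50, SE 0.46, adjusted p = 0.0124) and to 0.103-fold after S-PRT (log2 -3.28, SE 0.48, adjusted p = 0.00211). The F-PRT call was lost without F-PRT 1, F-PRT 2 or F-PRT 3 (adjusted p 0.0592, 0.0521 and 0.0551), and the S-PRT call held on leaving out each of the 12 libraries (adjusted p at most 0.00911).

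Sprr2d (ENSMUSG00000042212, chromosome 3, 92339140 to 92340873) was at 19.6, 18.4, 11.2 and 3.41 scaled CPM in Untreated, at 1.76, 2.07, 3.27 and 3.50 in F-PRT and at 2.14, 1.95, 2.37 and 0.351 in S-PRT. The S-PRT libraries all lay below Untreated, while F-PRT 4 was just above Untreated 4. In TPM S-PRT 1 (4.31) and S-PRT 3 (3.7) were above Untreated 4 (3.33). Sprr2d fell after S-PRT (0.131-fold, log2 -2.93, SE 0.57, adjusted p = 0.0119) on leaving out any library (adjusted p at most 0.0459), and after F-PRT it stood at 0.202-fold (log2 -2.31, SE 0.55, adjusted p = 0.0503). That F-PRT value passed on leaving out S-PRT 4 (adjusted p = 0.00877) or Untreated 4 (adjusted p = 0.0161). Leaving out S-PRT 4 also raised the share of all genes called, from 2.39% to 7.61% after F-PRT and from 4.34% to 11.7% after S-PRT. The S-PRT call was lost when only the 8 libraries of those groups were fitted (adjusted p = 0.065).

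Sprr2h was the highest of the family in untreated skin, at 31.0 ± 23.1 TPM. Its scaled CPM were 47.3, 24.0, 27.2 and 9.0 in Untreated, 4.79, 4.72, 10.8 and 6.73 in F-PRT and 8.04, 8.56, 3.68 and 0.644 in S-PRT. The S-PRT libraries did not overlap Untreated, and F-PRT 3 lay above Untreated 4. In TPM S-PRT 1 (14.1) and S-PRT 2 (10.6) were above Untreated 4 (7.69). Sprr2h did not pass in either comparison (0.252-fold, adjusted p = 0.144 after F-PRT, and 0.196-fold, adjusted p = 0.0596 after S-PRT), and without S-PRT 4 it passed in both (adjusted p = 0.0202 and 0.0257). Without Untreated 4 it passed after S-PRT (adjusted p = 0.0421).

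Sprr2e and Sprr2f had fewer counts, at most 16 and 11 per irradiated library. Sprr2e stood at 6.19, 4.66, 2.18 and 0.973 scaled CPM in Untreated, at 0.576 to 0.754 in F-PRT and at 0.625, 0.821, 0.252 and 0 in S-PRT. Sprr2f stood at 2.55, 4.61, 2.90 and 0.608 in Untreated, at 0.213 to 0.576 in F-PRT and at 0.491, 0.359, 0.353 and 0 in S-PRT. For both genes every irradiated library was below every Untreated library in scaled CPM, but not on other scales. In TPM Sprr2e was at 1.35 in S-PRT 1 and 1.26 in F-PRT 3 against 1.02 in Untreated 4, and Sprr2f at 1.16 in S-PRT 1 against 0.70 in Untreated 4. In counts F-PRT 4 equalled Untreated 4 (16 for Sprr2e and 10 for Sprr2f). Both fell after S-PRT, Sprr2e to 0.125-fold (adjusted p = 0.0305) and Sprr2f to 0.118-fold (adjusted p = 0.0215), and neither passed after F-PRT (0.190-fold, adjusted p = 0.0961, and 0.151-fold, adjusted p = 0.0502). The S-PRT call of Sprr2e was lost in 8 of the 12 fits with a library left out, those lacking any 1 F-PRT library, S-PRT 1, S-PRT 3, Untreated 1 or Untreated 2 (adjusted p 0.0504 to 0.0939). The S-PRT call of Sprr2f was lost in 4 such fits, those lacking S-PRT 2, S-PRT 3, Untreated 2 or Untreated 3 (adjusted p 0.0553 to 0.0804). After F-PRT both genes passed once S-PRT 4 was left out (adjusted p = 0.0163 and 0.00872), and Sprr2f also without Untreated 4 (adjusted p = 0.0213).

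**Figure D3:**
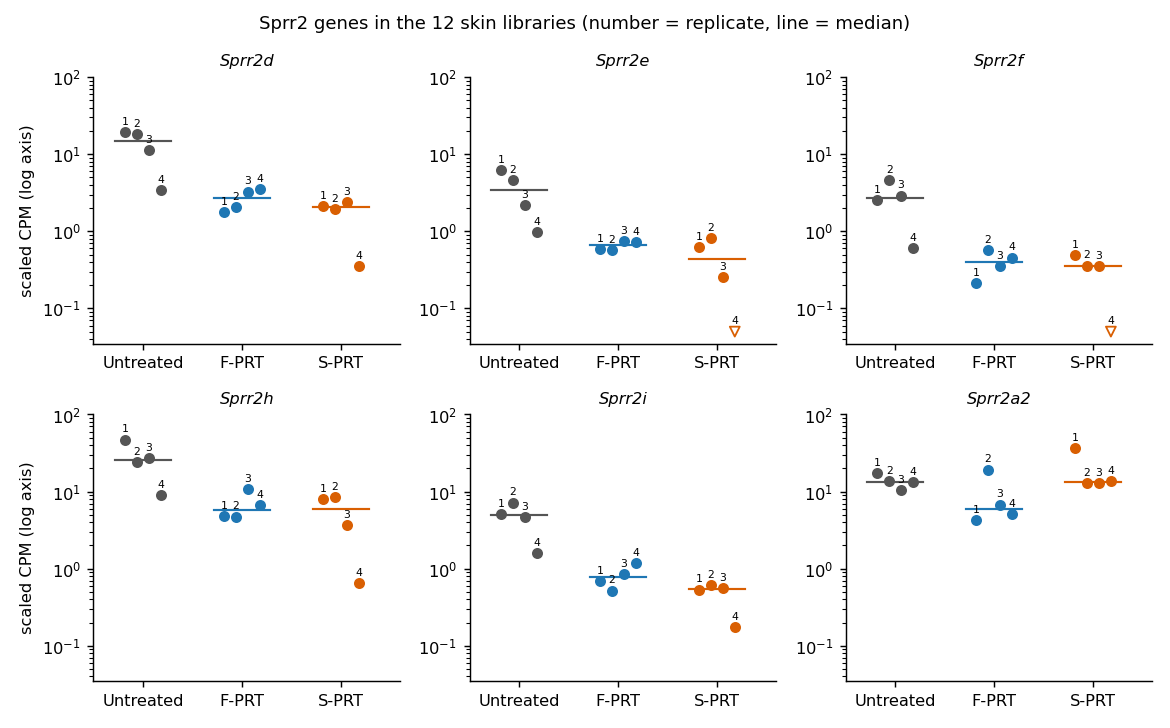
Scaled CPM (logarithmic axis) of 6 Sprr2 genes in the 12 skin libraries; each point is 1 library, numbered by replicate, the line is the group median and an open triangle marks a value of 0. In Sprr2e, Sprr2f and Sprr2i all 8 irradiated libraries lie below the 4 Untreated ones, Untreated 4 is the lowest untreated library in each of the first 5 genes, and Sprr2a2 lacks the pattern.

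Sprr2a2 did not show the separation seen in these 5 genes. It stood at 17.4, 13.7, 10.5 and 13.1 scaled CPM in Untreated, at 4.26, 19.3, 6.78 and 5.14 in F-PRT and at 36.9, 12.9, 12.8 and 13.6 in S-PRT. The groups overlapped, with F-PRT 2 and S-PRT 1 far above their groups, and F-PRT 1, F-PRT 3 and F-PRT 4 lay below every Untreated library. It did not pass after F-PRT (0.647-fold, log2 -0.63, SE 0.48, adjusted p = 0.593, and log2 -1.34, adjusted p = 0.161 without F-PRT 2) or S-PRT (log2 0.48, SE 0.47, adjusted p = 0.674). Sprr2a1, which shares most of its sequence, was at 1.58 scaled CPM or less in every library and did not pass either.

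The share of Sprr2a2 in the Sprr2 counts is not a separate result, since lower values of the other Sprr2 genes raise it. Sprr2a2 supplied 17.2%, 18%, 17.5% and 43.4% of the summed Sprr2 counts in Untreated 1 to 4. In F-PRT the shares were 32.6%, 64.9%, 28.3% and 27.1%, and in S-PRT 72.1%, 49.3%, 59.7% and 79.8%. All S-PRT libraries lay above all Untreated libraries, and the F-PRT libraries overlapped Untreated through Untreated 4. These shares are a description, with no test.

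Summed over all 11 genes, Sprr2 stood at 101, 75.9, 59.9 and 30.3 scaled CPM in Untreated, 13.1, 29.7, 24.0 and 18.9 in F-PRT and 51.2, 26.1, 21.3 and 17.0 in S-PRT. In scaled CPM the F-PRT libraries all lay below Untreated, F-PRT 2 just under Untreated 4, and S-PRT 1 overlapped Untreated. In TPM F-PRT 2 (39.6) and F-PRT 3 (34) were above Untreated 4 (27.2). The sum did not pass after F-PRT (0.321-fold, log2 -1.64, SE 0.40, adjusted p = 0.0564) or S-PRT (0.433-fold, log2 -1.21, SE 0.40, adjusted p = 0.124). It passed after F-PRT in the fits lacking S-PRT 1, S-PRT 4 or Untreated 4 (adjusted p 0.0339, 0.0213 and 0.0267) and with DESeq2 (adjusted p = 0.00216), and after S-PRT without S-PRT 1 (adjusted p = 0.0444) and with DESeq2 (adjusted p = 0.0404). Leaving out Sprr2a1, Sprr2a2 and Sprr2a3, the sum was 82.5, 61.2, 49.0 and 16.1 scaled CPM in Untreated, 8.47 to 16.4 in F-PRT and 1.35 to 12.5 in S-PRT, with S-PRT separate from Untreated on this scale and F-PRT 3 just above Untreated 4.

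Beside these values, 11 sebaceous gland markers summed to 7008 to 9209 scaled CPM in Untreated, 2913 to 4768 in F-PRT and 1301 to 5435 in S-PRT. All 11 were detected in S-PRT 4. Scd1 alone stood at 4536 to 5832 in Untreated. Taken singly, Awat2 and Krt79 overlapped Untreated in F-PRT, and Awat2 and Fasn did so in S-PRT. The sum of 10 dermal fibroblast markers ran the other way in F-PRT, with 1135 to 3728 scaled CPM in Untreated, 3936 to 5033 in F-PRT and 523 to 5953 in S-PRT. Among these 10, Col1a2, Dcn, Lum, Pdgfra, Fbn1 and Dpt overlapped Untreated in F-PRT when taken singly. Basal keratinocyte markers overlapped, at 8697 to 16043, 9046 to 11676 and 9635 to 33519 scaled CPM. The part of these shifts in the Sprr2 values was not tested. With counts scaled to 12 keratinocyte genes in place of all genes, the Sprr2 median was log2 -2.36 after F-PRT and -2.98 after S-PRT. The median of all genes was then -0.095 and -0.196. On that scaling the Sprr2 sum did not pass (adjusted p = 0.165 and 0.247). Sprr2d and Sprr2i were the members that passed after S-PRT, and Sprr2e, Sprr2f and Lce3f lost their calls. The 12 genes held 3.84% of the counts in S-PRT 4 and 3.49% in Untreated 1, against 1.962% to 2.965% in the other skin libraries. Whether this scaling corrects for keratinocyte content was not tested.

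Sprr1a and Sprr1b, which encode further small proline-rich precursors of the envelope, had wide untreated ranges. Sprr1a stood at 471, 149, 253 and 95.4 scaled CPM in Untreated, at 92.4, 97.4, 151 and 133 in F-PRT and at 171, 157, 84.4 and 16.5 in S-PRT. Sprr1b stood at 118, 15.5, 47.2 and 18.9 in Untreated, at 20.9 to 41.2 in F-PRT and at 6.21 to 25.2 in S-PRT. In both genes Untreated 1 was the highest of the 12 libraries and the groups overlapped. Neither passed after F-PRT (Sprr1a log2 -1.03, adjusted p = 0.461, and Sprr1b log2 -0.84, adjusted p = 0.545) or S-PRT (log2 -1.17, adjusted p = 0.357, and log2 -1.55, adjusted p = 0.187), and without Untreated 1 the F-PRT value of Sprr1b was 0.04. Sprr4, whose annotated transcript is so short that its effective length was 47.6 to 56.2 bases, stood at 2.01 scaled CPM or less and did not pass (adjusted p = 0.72 and 0.945).

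Of the Lce3 genes, 5 were tested, and Lce3f fell after S-PRT. Lce3f (ENSMUSG00000068885, chromosome 3, 92992226 to 92993426) stood at 2.55, 0.987, 3.14 and 0.365 scaled CPM in Untreated, at 0.905, 0.345, 0.804 and 0.545 in F-PRT and at 0.268, 0.513, 0.303 and 0.117 in S-PRT. S-PRT 2 lay above Untreated 4, so the groups overlapped. The change was 0.175-fold after S-PRT (log2 -2.52, SE 0.63, adjusted p = 0.0414) and 0.372-fold after F-PRT (log2 -1.43, SE 0.58, adjusted p = 0.267). The S-PRT call rested on at most 9.61 expected counts per S-PRT library and was lost in 10 of the 12 fits with a library left out (all but those lacking S-PRT 4 or Untreated 4; the adjusted p then ran from 0.0563 to 0.125), and 36.8% of the 150-base windows of Lce3f occurred in Lce3c, Lce3d or Lce3e.

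Lce3c, the most abundant Lce3 gene, did not pass (log2 -0.19, adjusted p = 0.92 after F-PRT, and log2 -0.99, adjusted p = 0.424 after S-PRT). It stood at 29.9, 7.73, 19.6 and 6.69 scaled CPM in Untreated, at 12 to 18.8 in F-PRT and at 1.17 to 11.5 in S-PRT. The fitted log2 changes of the 5 Lce3 genes ran from -2.10 to -0.19 after F-PRT and from -2.52 to -0.99 after S-PRT. Untreated 1 and 3 carried the high values: as a percent of Lce1, the Lce3 sum was 1.54, 0.666, 1.27 and 0.416 in Untreated, 0.547 to 0.775 in F-PRT and 0.191 to 0.682 in S-PRT.

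**Figure D4:**
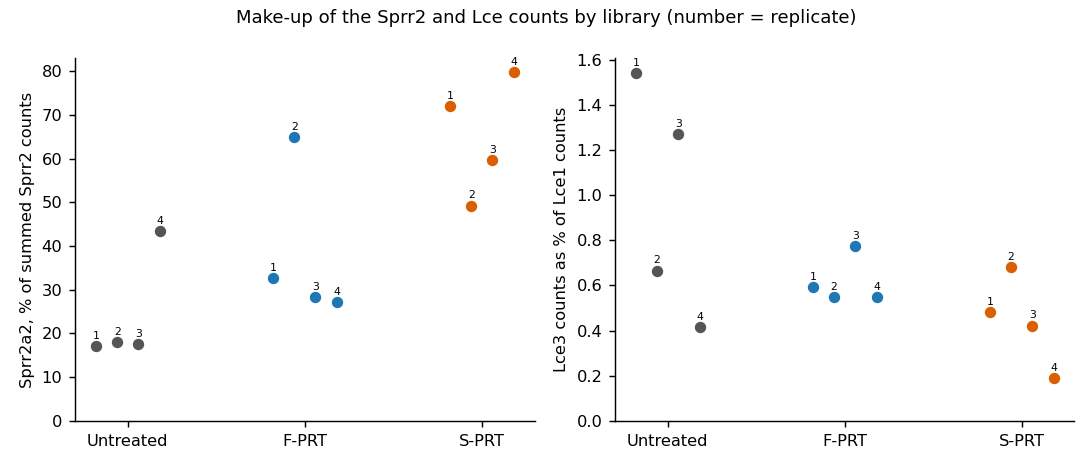
Left, Sprr2a2 as a percent of the summed Sprr2 counts; right, the summed Lce3 counts as a percent of the summed Lce1 counts; each point is 1 skin library, numbered by replicate. S-PRT libraries (49.3% to 79.8%) lie above Untreated on the left, and Untreated 1 and 3 stand above all irradiated libraries on the right.

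The 14 Lce1 genes, which make up most of the cluster's transcripts, passed in neither comparison. Their log2 changes ran from -0.04 to 0.95 after F-PRT (13 of 14 above 0, median 0.29) and from -0.34 to 0.38 after S-PRT (4 of 14 above 0, median -0.12). The S-PRT median turned to 0.12 without S-PRT 4, to 0.09 without Untreated 1 and to 0.11 on the log2(TPM + 1) scale, on which the median of all genes also shifted to 0.18 from 0.00. Summed, Lce1 stood at 3013, 1670.1, 2401 and 2089 scaled CPM in Untreated, at 2508 to 2889.9 in F-PRT and at 2261, 2293, 2832 and 828 in S-PRT. The groups overlapped, with Untreated 1 above every other library and S-PRT 4 below. Lce1m, the most abundant of them over the skin libraries, stood at 415 ± 108, 509 ± 53.7 and 359 ± 175 scaled CPM (SD, n = 4) in Untreated, F-PRT and S-PRT. Lce6a, a single late envelope gene, stood at 28 ± 8.48, 25.7 ± 3.21 and 20.6 ± 10.9 and did not pass (adjusted p = 0.928 and 0.639).

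Flg, the filaggrin gene (ENSMUSG00000102439, chromosome 3, 93273523 to 93293686), was the 1 member that rose. It stood at 543, 254, 435 and 405 scaled CPM in Untreated, at 1027, 998, 1177 and 1088 in F-PRT and at 833, 639, 872 and 464 in S-PRT. All F-PRT libraries lay above all Untreated libraries, and S-PRT did so but for S-PRT 4, which was below Untreated 1. Flg rose 2.62-fold after F-PRT (log2 1.39, SE 0.24, adjusted p = 0.0078), on leaving out any library (adjusted p at most 0.0323), and stood at 1.72-fold after S-PRT (log2 0.78, SE 0.23, adjusted p = 0.0905). The S-PRT value passed on leaving out S-PRT 4 (log2 0.94, adjusted p = 0.0146) or Untreated 1 (log2 0.95, adjusted p = 0.0391). In those fits 11.7% and 6.57% of all genes were called after S-PRT, against 4.34% with all libraries. The effective length given for Flg ran from 2984 to 5629 bases between libraries, so its TPM depends on that length as well as on its counts. Its promoter is shown as that of the member that rose, at chr3:93273296-93273545 on the plus strand, with the same motifs in capitals as above. TGANTCA lies 103 bases and TATAAA 53 bases before the RefSeq start. That start lies past the GENCODE start of Flg (93273523), so the last bases of the window are inside the GENCODE gene and both distances are shorter from there.
Flg: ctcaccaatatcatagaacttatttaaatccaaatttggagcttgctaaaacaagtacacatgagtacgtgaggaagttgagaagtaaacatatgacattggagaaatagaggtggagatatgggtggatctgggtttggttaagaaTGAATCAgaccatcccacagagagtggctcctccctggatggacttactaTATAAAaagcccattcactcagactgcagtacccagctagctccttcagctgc
The other filaggrin-type genes stand next to Flg and did not pass. Flg2, the most highly counted member, was at 2653 ± 292 scaled CPM (SD, n = 4) in Untreated, 2929 ± 159 in F-PRT and 2338 ± 745 in S-PRT (adjusted p = 0.831 and 0.755). Hrnr, which encodes hornerin, stood at 1111, 908, 893 and 1097 in Untreated, at 1141, 1310.4, 1482 and 1550.3 in F-PRT and at 992, 1322, 1550 and 179 in S-PRT. The F-PRT libraries of Hrnr lay above all Untreated libraries and those of S-PRT overlapped, and the fitted changes were log2 0.45 (SE 0.44, adjusted p = 0.697) and log2 0.01 (adjusted p = 0.994). Rptn, which encodes repetin, stood at 58.3, 28.5, 23.2 and 22.6 in Untreated, at 25.5 to 36.3 in F-PRT and at 2.58 to 37 in S-PRT (adjusted p = 0.933 and 0.514).

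Lor, the loricrin gene and the main late protein of the envelope, was at 1152, 469.9, 514 and 523 scaled CPM in Untreated, at 805, 1082, 1207 and 1113 in F-PRT and at 1055, 934, 1199.6 and 43.1 in S-PRT. Untreated 1 lay among the irradiated libraries, S-PRT 4 lay far below all others, and the other 7 irradiated libraries lay above the other 3 Untreated libraries. With all libraries Lor did not pass (log2 0.66, SE 0.65, adjusted p = 0.699 after F-PRT, and log2 0.28, SE 0.65, adjusted p = 0.876 after S-PRT). Ivl, which encodes involucrin, had a like layout in F-PRT, at 207, 94.5, 110.1 and 89.4 in Untreated, 160.4, 185, 194 and 163 in F-PRT and 104, 115, 162 and 50.4 in S-PRT (adjusted p = 0.524 and 0.797). Crct1 stood at 487, 332, 334 and 336 in Untreated, at 338 to 469 in F-PRT and at 58.7 to 427 in S-PRT (adjusted p = 0.897 and 0.804).

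**Figure D5:**
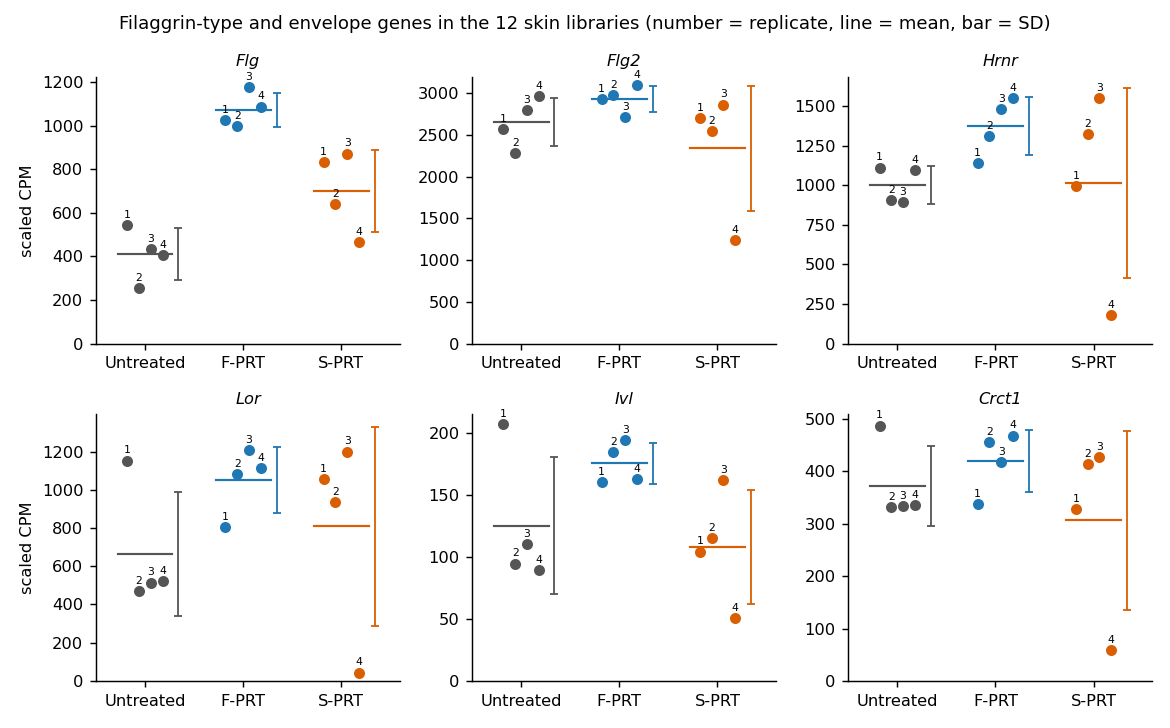
Scaled CPM of Flg, Flg2, Hrnr, Lor, Ivl and Crct1 in the 12 skin libraries; each point is 1 library, numbered by replicate, with the group mean as a line and the SD as a bar. F-PRT libraries of Flg (998 to 1177) and Hrnr (1141 to 1550.3) lie above all Untreated ones, Untreated 1 stands apart in Lor and Crct1, and S-PRT 4 is the lowest S-PRT library in every panel.

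Counted over members by position alone, Flg and Hrnr lay wholly above Untreated in F-PRT (2 of 37, beside 8.02% of all genes tested) and Sprr2e, Sprr2f and Sprr2i wholly below (3 of 37, beside 8.14%). In S-PRT 0 of 37 lay wholly above (3.81% of all genes) and Sprr2d, Sprr2e, Sprr2f, Sprr2h and Sprr2i lay wholly below (5 of 37, beside 5.37%). These counts hold for scaled CPM. The count by position in TPM was added after the data were seen. On that scale Flg, Flg2 and Hrnr lay wholly above Untreated in F-PRT (3 of 37, beside 10.3% of all genes) and 0 of 37 wholly below (1.41%). In S-PRT 0 of 37 lay wholly above in TPM (4.59%) and Sprr2i alone wholly below (1 of 37, beside 1.12%).

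The 2 libraries that stood apart in many members, S-PRT 4 and Untreated 1, moved the counts of members. Without both, a choice made after the data were seen, 38 members were tested and 8 rose after F-PRT, beside 8.20% of all genes: Lor, Ivl, Flg, Lce1m, Lce1g, Lce1e, Lce1k and Lce1d. Lor was then 2.11-fold higher (log2 1.07, SE 0.13, adjusted p = 0.000836), Ivl 1.80-fold (adjusted p = 0.00397), Flg 2.96-fold (adjusted p = 0.000501) and Lce1g 2.35-fold (adjusted p = 0.00894). In that fit Sprr2d, Sprr2e, Sprr2f, Sprr2h and Sprr2i fell, 5 of 38 beside 5.84% of all genes. After S-PRT Lor (2.14-fold, adjusted p = 0.000855), Flg (2.17-fold, adjusted p = 0.00294), Lce1g, Lce1e and Lce1d rose, 5 of 38 beside 13% of all genes, and these 5 Sprr2 genes fell, beside 10.5%. The Lce1 median was 0.49 after F-PRT and 0.32 after S-PRT in that fit, and the Sprr2 median -1.76 and -1.86.

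The second question was whether the beams differed from each other. Between F-PRT and S-PRT 0 of 37 members passed, as did 0 of all 19038 genes tested (0%) by edgeR. At an unadjusted p under 0.05 there were 3 members (Flg, Ivl and Sprr2a2) and 522 genes in all, and DESeq2 called 2 genes and 0 members. The fitted differences of those 3 were log2 0.61 (SE 0.23) for Flg, 0.70 (SE 0.32) for Ivl and -1.11 (SE 0.48) for Sprr2a2, each at adjusted p = 0.999. Of the 37 members 34 had a higher fitted mean in F-PRT, with a median log2 difference of 0.39 beside -0.02 for all genes. Without S-PRT 4 the median was 0.10 with 28 of 39 above 0. A p that misses the threshold does not show that the beams act alike: over the 37 members the SEs of these differences ran from 0.23 (Flg2 and Flg) to 0.86 (Lce3d).

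The remaining steps of cornification were looked up in lists written from general knowledge with earlier results of these data known. Their counts are read against the shares of all genes given above, 1.39% lower after F-PRT and 2.52% lower after S-PRT. Among 14 tested cross-linking and scaffold genes, Cstb, which encodes the protease inhibitor cystatin B, fell after S-PRT (0.623-fold, log2 -0.68, adjusted p = 0.00587), 0 rose and 13 did not pass. Cstb was at 166 ± 19.9 scaled CPM (SD, n = 4) in Untreated, 119 ± 5.91 in F-PRT and 104 ± 13.3 in S-PRT. After F-PRT 0 of these 14 passed, Cstb standing at adjusted p = 0.0562, and at 0.0131 and 0.038 on leaving out S-PRT 4 or Untreated 4. The S-PRT call of Cstb held in all 12 fits with a library left out, and was lost with scaling to keratinocyte genes (adjusted p = 0.154). All 13 tested genes of filaggrin processing (proteases, their inhibitor, peptidylarginine deiminases and histidase) did not pass after either beam, with medians of log2 0.10 and -0.07. The log2 changes of these 13 ran from -0.28 to 0.63 after F-PRT and from -0.45 to 4.75 after S-PRT. All 22 transcription factors of epidermal differentiation did not pass either, with medians of -0.17 and -0.10.

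Among 14 genes of the lipid envelope 0 passed after F-PRT and 2 fell after S-PRT. Elovl4, which elongates very long fatty acids, stood at 0.405-fold after S-PRT (adjusted p = 0.0403) and Abhd5, a lipase cofactor, at 0.764-fold (adjusted p = 0.044). Elovl4 lost its call in 10 and Abhd5 in 11 of the 12 fits with a library left out (adjusted p up to 0.114 and 0.113), that is, in all but those without S-PRT 2 or S-PRT 4 for Elovl4 and without S-PRT 4 for Abhd5. After F-PRT, Elovl4 passed once S-PRT 4 was left out (log2 -0.66, adjusted p = 0.0231). Of 15 tested S100 and neighbouring genes, S100a8 and S100a9, alarmins of neutrophils and stressed keratinocytes, fell after both beams and 13 did not pass. The log2 changes of the 15 ran from -2.47 to 1.04 after F-PRT and from -2.61 to 4.41 after S-PRT. S100a8 stood at 7.22, 28.1, 6.29 and 12.7 scaled CPM in Untreated, at 1.09 to 3.63 in F-PRT and at 1.29 to 2.99 in S-PRT, with no overlap (0.18-fold, adjusted p = 0.0207, and 0.164-fold, adjusted p = 0.0109). S100a9 stood at 0.294-fold after F-PRT (adjusted p = 0.0249) and 0.351-fold after S-PRT (adjusted p = 0.0362). The F-PRT call of S100a8 was lost in 4 of the 12 fits with a library left out, lacking Untreated 2 or any F-PRT library but F-PRT 2 (adjusted p 0.0664 to 0.0889). S100a9 lost its F-PRT call in 5 such fits, lacking any 1 F-PRT library or Untreated 2 (adjusted p up to 0.0925). It lost its S-PRT call in 7, lacking F-PRT 1, F-PRT 2, F-PRT 4, S-PRT 1, S-PRT 2, S-PRT 3 or Untreated 2 (adjusted p up to 0.12). With scaling to keratinocyte genes the F-PRT call of S100a8 was lost (adjusted p = 0.0791), as were both calls of S100a9 (adjusted p = 0.12 and 0.0991).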

How the data were processed

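PolyA RNA of mouse skin and bone was sequenced in paired reads of 150 bases on an Illumina instrument, per the labels' protocols. RSEM, STAR, cutadapt, FastQC and the build GRCm38 are listed in the submitters' processing notes; their versions and roles, and the annotation, were not given in the sources used here. The deposited values of each library are RSEM expected counts, TPM and FPKM, per the file headers. FPKM was not used. Names and positions came from GENCODE M21 (55230 of 55471 identifiers matched) and promoters from the RefSeq table of GRCm38.p6, whose start sites can differ from GENCODE.

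Expected counts of the 12 skin libraries were rounded, filtered with filterByExpr, scaled by TMM and fitted together with edgeR 4.0.16 (quasi-likelihood, R 4.3.3), with Benjamini-Hochberg adjustment over 19038 genes. SE was the absolute log2 change divided by the square root of F. The scripts were tested on simulated data. Alternatives used RLE scaling, DESeq2 1.42.0, limma 3.58.1 (voom, and log2(TPM + 1)), other filters, a replicate block, the 8 libraries compared, keratinocyte scaling and each library left out. Leaving out S-PRT 4 and Untreated 1 together was chosen after seeing the data. The members and lists were chosen with earlier results of these data known, the pathway lists from general knowledge. All Sprr, S100-fused and envelope genes are named, of Lce those past the test and the most abundant of each subfamily, and of each pathway list up to 3 past the test. Other Lce1 and Lce3 genes named with values were named after these were seen.

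Replicate pairs differed beyond counting noise (chi-square per degree of freedom at least 10.74), so none was counted as a repeat. No molecular identifiers mark the reads, so PCR copies cannot be told from separate molecules. The labels call the samples biological replicates without naming animals.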

Additional observations from a re-analysis of the deposited data

Results flagged for a closer look

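Among 68 groups of 4 libraries looked at, 9 held a library far from the other 3 by Dixon's criterion, which chance meets in about 1 of 20 groups. Untreated 1 stood high in Lor (1152 scaled CPM, rounded to 1150 in the list of such values, the others 469.9 to 523), Rptn (58.3, the others 22.6 to 28.5), Crct1 (487, the others 332 to 336) and Sprr4 (2.01, the others 0.484 to 0.713). S-PRT 1 stood high in Sprr2a2 (36.9, the others 12.8 to 13.6), Crnn (11.7, the others 0.154 to 1.76) and Tchhl1 (19.9, the others 0.103 to 0.82). F-PRT 2 stood high in Sprr2a2 (19.3, the others 4.26 to 6.78), and F-PRT 3 in Lce3c (18.8, the others 12 to 12.9).

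Bone libraries, which enter no comparison above, held transcripts of these genes in some irradiated samples. The members' summed TPM was at most 2.4 in untreated bone, against 87 in F-PRT 2, 39.2 in F-PRT 4, 16.8 in F-PRT 3, 14.4 in S-PRT 4 and 2.7 in S-PRT 1. In the first 4 of these Krt5 stood at 11.2, 3.79, 2.29 and 2.91 TPM and Krt10 at 30.4, 12.1, 6.06 and 5.26 TPM. Their part in the bone values was not tested.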

How the results depend on the processing

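Against Untreated, the members called (2 after F-PRT, 5 after S-PRT) numbered 6 and 8 with DESeq2, 13 and 10 without S-PRT 4 and Untreated 1, 6 and 1 with only the 8 libraries compared, and 1 and 1 with limma on log2(TPM + 1). After S-PRT 2 were called with voom, with a filter of 1 CPM in 4 libraries and with keratinocyte scaling. With the replicate block 1 was called after F-PRT and 4 after S-PRT, Sprr2i standing at adjusted p = 0.0544 after F-PRT and Lce3f at 0.0581 after S-PRT. Without a filter on low counts 3 and 6 of 45 members were called, 1 of them higher in each comparison, beside 1.12% and 1.82% of all genes. Leaving out each library gave 1 to 6 and 2 to 7, the most without S-PRT 4. In the fit without S-PRT 4, 7.61% and 11.7% of all genes were called. Voom called 2.50% and 4.56% of all genes, and the filter of 1 CPM gave 2.75% and 4.99%. The share of all genes called moved too: 2.39% after F-PRT and 4.34% after S-PRT became 4.94% and 7.82% with DESeq2, 6.63% and 1.66% with 8 libraries, 14% and 23.4% without both libraries, 1.57% and 3.13% with the block, 0.851% and 1.52% with keratinocyte scaling and 0.756% and 1.39% on log2(TPM + 1). On that last scale 110 genes rose and 34 fell after F-PRT (191 and 264 with counts), and 197 rose and 67 fell after S-PRT (348 and 479; with keratinocyte scaling 87 and 203). Between the beams 0 members were called throughout. The Sprr2 sum after F-PRT passed at log2 -1.633 with DESeq2, -1.643 without a filter, -1.637 with 8 libraries and -1.362 without both libraries, and after S-PRT at -1.194 with DESeq2. With a library left out it ran from -1.883 to -1.37 and from -1.647 to -0.9341, and between the beams from -0.6333 to 0.007451. The labels do not say that a replicate number marks shared animals or days. Of 12 same-numbered pairs 7 had a correlation of deviations over 0.1 (median 0.117, range -0.343 to 0.372), against 8 of 36 differently numbered pairs (median -0.02), so whether the numbers pair the libraries was not settled.

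Some values that passed no test changed sign. Without S-PRT 4 and Untreated 1, log2 values after F-PRT were 0.28 for Rptn, 0.0524 for Sprr1b, 0.11 for Sprr4, 0.32 for Lce3c and 0.0733 for Lce6a. After S-PRT they were 0.0293 for Flg2, 0.0146 for Rptn, 0.39 for Ivl, 0.24 for Crct1, 0.90 for Sprr4, 0.31 for Lce1m and 0.0834 for Lce6a. On log2(TPM + 1), where the median of all genes shifts to 0.16 and 0.18, Rptn was 0.14, Lce3c 0.30 and Lce6a 0.20 after F-PRT, and Flg2 0.0290, Hrnr -0.0543, Lor -0.0674, Ivl 0.0487 and Sprr4 0.0246 after S-PRT. Voom gave -0.38 for Hrnr and -0.40 for Lor after S-PRT and 0.0545 for Lce3c after F-PRT. The block gave -0.13 for Hrnr and 0.0710 for Lce3c, and keratinocyte scaling -0.0447 for Hrnr. With a library left out, values after F-PRT ran from -0.30 to 0.27 (Rptn), -1.14 to 0.0405 (Sprr1b), -0.83 to 0.10 (Sprr4), -0.45 to 0.31 (Lce3c) and -0.29 to 0.0658 (Lce6a). After S-PRT they ran from -0.29 to 0.0391 (Flg2), -0.27 to 0.37 (Hrnr), -0.48 to 0.14 (Ivl), -0.48 to 0.0739 (Crct1), -0.0633 to 0.63 (Sprr2a2), -0.64 to 0.58 (Sprr4) and -0.40 to 0.11 (Lce1m). Of all alternative values of named genes, 949 kept direction and side of the threshold, 102 lost the call, 39 gained it and 44 changed sign; the cause was not tested. Counts of at most 17.4 per irradiated library limit Sprr2e, Sprr2f and Lce3f.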
